A study of Mus musculus with 6 samples.

Results

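Transcripts of 7 mast cell genes, *Cpa3*, *Mcpt4*, *Cma1*, *Tpsb2*, *Fcer1a*, *Ms4a2* and *Hdc*, were read from bulk RNA sequencing of MCA205 tumors. They encode granule proteases, chains of the high-affinity IgE receptor and the enzyme that makes histamine. They were chosen by name as a readout of the KIT-dependent mast cell lineage, and all 7 were found among the 54309 gene identifiers of the table. MCA205 is a transplantable fibrosarcoma cell line of C57BL/6 origin, in which the study detected no FLT3, c-KIT or CSF1R protein. The whole tumor was sequenced, without a sort for mast cells. Female C57BL/6J mice aged 7 weeks received 1000000 tumor cells under the skin of the right flank on day 0. From day 1 to day 8 the control group drank MilliQ water and the FF-10101 group drank water with 0.1 mg/mL FF-10101, and subcutaneous tumors were collected on day 8. The groups held 3 tumors each, 1 sample per tumor, described as biological replicates. FF-10101 was developed as a FLT3 inhibitor and acts on type III receptor tyrosine kinases, the family to which CSF1R and KIT also belong.

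Mast cells arise from bone marrow progenitors and mature in the tissue, where they depend on the receptor KIT and its ligand, stem cell factor. In connective tissue such as the skin they store chymase, tryptase and carboxypeptidase A3 in granules together with histamine and heparin, and release them when IgE bound to its receptor is cross-linked. Mast cells of mucosal surfaces store other chymases. Basophils share the IgE receptor, histamine and part of these transcripts.

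The table gave 9143806 to 13258258 recovered reads per tumor. Values below are normalized counts, that is, recovered reads after division by each size factor. A count of 0 allows up to 3 reads (a one-sided limit), or 2.29 to 3.38 normalized counts depending on the tumor. Control tumor 1 stood apart: 6 of 13963 genes had an adjusted p under 0.05 with all tumors (limma with Benjamini-Hochberg adjustment), and 3051 without that tumor. The pan-macrophage marker list summed to 62269 normalized counts in control tumor 1 and to 35129 and 35711 in control tumors 2 and 3.

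Reads of the 7 genes made up a larger share of the library in every FF-10101–treated tumor than in any control tumor. They accounted for 34.8 CPM (reads per 1000000 reads of the library) in control tumor 1 (95% exact binomial interval 31.2 to 38.8), 20.3 in control tumor 2 (17.5 to 23.5) and 27.1 in control tumor 3 (23.8 to 30.7). In FF-10101 tumors 1, 2 and 3 they accounted for 72.6 (68.1 to 77.4), 75.7 (70.2 to 81.5) and 174 (166 to 181) CPM. FF-10101 tumors 1 and 2 thus lay close together and FF-10101 tumor 3 lay above both, with intervals that do not touch. The intervals cover counting error only. In bulk tumors, more mast cells and more of these transcripts per mast cell cannot be told apart.

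**Figure D1:**
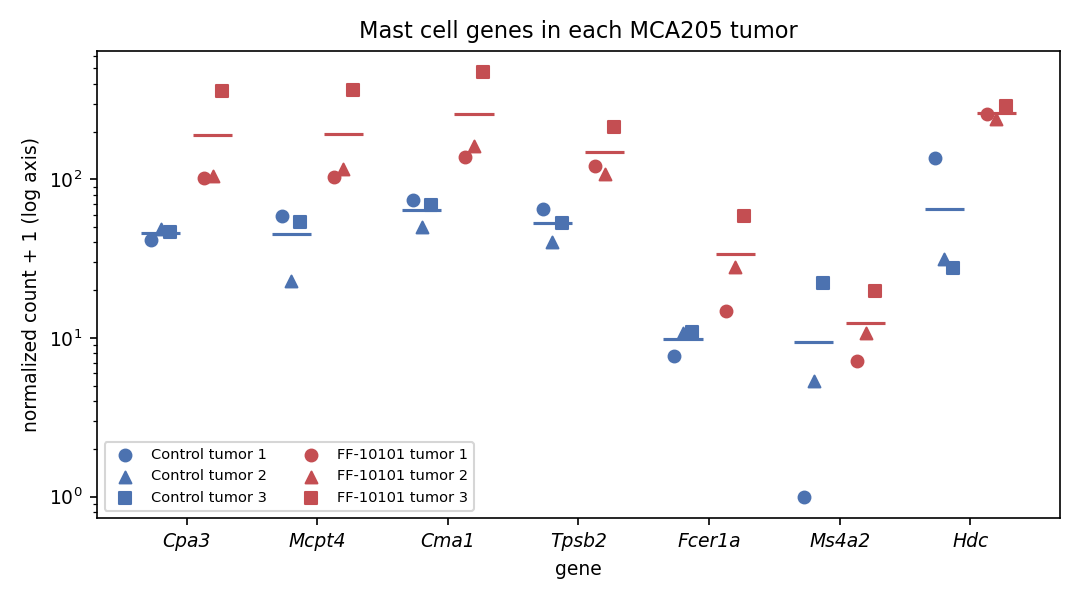
Normalized count plus 1 (log axis) of each of the 7 mast cell genes in the 3 control tumors (blue) and the 3 FF-10101–treated tumors (red), with a bar at each group mean and the same symbol for the same replicate number. All treated tumors lie above all control tumors for every gene but *Ms4a2*, and FF-10101 tumor 3 (red square) is highest for those 6 genes, by least for *Hdc*.

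Of the granule protease genes, *Cpa3* (ENSMUSG00000001865), which encodes carboxypeptidase A3, the enzyme that trims peptides from their carboxyl end in mast cell granules, had 40.5, 47.8 and 45.5 normalized counts in control tumors 1, 2 and 3. It had 101, 104 and 361 in FF-10101 tumors 1, 2 and 3. The control tumors differed by 1.18-fold at most, the groups did not overlap, and FF-10101 tumor 3 was 3.52 times the mean of the other two treated tumors. The means were 44.6 ± 3.72 and 189 ± 149 (SD, n = 3 each), and limma estimated the log2 fold change at 1.79 (standard error, SE, 0.48, adjusted p = 0.229).

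*Mcpt4* (ENSMUSG00000061068) encodes mouse mast cell protease 4, the chymase that in its cleavage preference is the counterpart of human chymase. It had 57.4, 21.7 and 53.2 normalized counts in the control tumors and 102, 115 and 363 in the FF-10101–treated tumors. Control tumor 2 was the lowest and FF-10101 tumor 3 the highest, with no overlap between groups. The log2 fold change was 1.97 (SE 0.56, limma adjusted p = 0.229). *Cma1* (ENSMUSG00000022225), in the same protease cluster on chromosome 14, encodes mouse mast cell protease 5. *Cma1* had 73.2, 48.9 and 67.7 normalized counts in the control tumors and 137, 161 and 474 in the treated tumors. The order of the tumors was the same as for *Mcpt4*, and the log2 fold change was 1.80 (SE 0.46, limma adjusted p = 0.229).

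*Tpsb2* (ENSMUSG00000033825), the gene of the tryptase mouse mast cell protease 6, had 64.2, 39.1 and 52.1 normalized counts in the control tumors and 119.9, 107 and 212 in the FF-10101–treated tumors. It again separated the groups, but FF-10101 tumor 3 exceeded the mean of the other two treated tumors by 1.87-fold, against 3.18- to 3.52-fold for *Cpa3*, *Mcpt4* and *Cma1*. The log2 fold change was 1.44 (SE 0.33, limma adjusted p = 0.229).

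Of the IgE receptor genes, *Fcer1a* (ENSMUSG00000005339), which encodes the chain that binds IgE, gave 6, 9 and 9 reads in the control tumors. The FF-10101–treated tumors gave 18, 25 and 65 reads. This equals 6.75, 9.78 and 9.98 against 13.7, 27.1 and 57.8 normalized counts. The groups did not overlap, although the lowest treated tumor was only 1.38 times the highest control tumor, a gap of few reads. The log2 fold change was 1.58 (SE 0.58, limma adjusted p = 0.26). *Fcer1a* reached the minimum mean of 10 normalized counts through the treated tumors, since its control mean was 8.84.

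*Ms4a2* (ENSMUSG00000024680) encodes the receptor chain that amplifies the signal. It gave 0, 4 and 19 reads in the control tumors. The FF-10101–treated tumors gave 8, 9 and 21 reads. Control tumor 3, at 21.1 normalized counts, was above every treated tumor, the highest of which had 18.7. With a mean of 9.99 normalized counts over the 6 tumors it lay just under the minimum, and the fit without a minimum gave a log2 fold change of 1.22 with a 95% interval of −1.06 to 3.51 (limma adjusted p = 0.702). No difference in *Ms4a2* was detected. With two-sided 95% exact Poisson intervals of 0 to 3.69, 1.09 to 10.2 and 11.4 to 29.7 reads, control tumor 3 lay above control tumors 1 and 2 by more than counting error. The *Ms4a2* estimate rested on single control tumors. Leaving out control tumor 1, the tumor without a read, gave a log2 fold change of 0.077, and leaving out control tumor 3 one of 2.31. Of its 31-base words, 3.76% also occur in *Ms4a4b*, a lymphocyte gene with 261 to 972 normalized counts, so assignment of single reads is uncertain.

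*Hdc* (ENSMUSG00000027360), which encodes histidine decarboxylase, the enzyme that makes histamine, had 136, 30.4 and 26.6 normalized counts in the control tumors and 256, 238 and 289.8 after FF-10101. The log2 fold change, 2.41 (SE 0.56, limma adjusted p = 0.229), was the largest of the 7 genes, and 0.544% of the 13963 genes tested had a larger one. Its pattern differed from that of the proteases in which tumors were high. Control tumor 1 was 5.12 times control tumor 3, and the 3 treated tumors were within 1.22-fold of each other, so that FF-10101 tumor 3 did not stand out. Without control tumor 1 the log2 fold change of *Hdc* was 3.15 (limma adjusted p = 0.000239). Basophils and neutrophils can also express *Hdc*. The 10 neutrophil markers were mixed in control tumor 1. *S100a8* and *S100a9* were higher there (146 and 216 normalized counts) than in control tumors 2 and 3 (48.9 and 49.9 for *S100a8*, 60.9 and 47.7 for *S100a9*), and had 183 to 241 and 262 to 400 in the treated tumors. *Csf3r*, *Cxcr2* and the low *Ltf* were also highest in control tumor 1 among the control tumors. *Retnlg* was instead lowest there, at 91.2 against 373 and 263, as was *Mmp9*, at 800.3 against 1537 and 1369. The part of neutrophils in the *Hdc* values was not tested.

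Counted over all 7 genes in the fit without a minimum, 6 had an unadjusted p under 0.05 with the higher mean after FF-10101, where 6.7% of the 24056 genes with a read did so. The same 6 did not overlap between groups, against 7.86% of those genes in this direction, and the exact two-sided permutation p was 0.1 for each, the smallest that 3 tumors against 3 can give. It was 0.5 for *Ms4a2*. After Benjamini-Hochberg adjustment over all genes 0 of the 7 passed 0.05, against 0.0707% of the genes with a read and 0.043% of those that reached the minimum, and 0 passed with limma-voom on the recovered reads, which called 0.0358% of all genes. The median log2 fold change of the 7 genes was 1.79, beside 0.042 for all genes with a read.

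Leaving out single tumors kept every direction but moved these counts. In the fit without a minimum and without FF-10101 tumor 3 the median log2 fold change of the 7 genes was 1.19, and 4 of them had an unadjusted p under 0.05 (3.81% of all genes in that fit were higher by the same rule). Without control tumor 2 the number was 3 (4.07% of all genes). Leaving out control tumor 1 or control tumor 3 gave 4 genes each (12.7% and 3.57% of all genes). The number was 6 with FF-10101 tumor 1 left out (6.12%) and 5 with FF-10101 tumor 2 left out (3.6%). The fit with the minimum, in which *Ms4a2* was not tested, gave 6 such genes without control tumor 1 (19.8% of all genes), control tumor 2 (5.24%), control tumor 3 (4.43%) or FF-10101 tumor 1 (8.72%). It gave 5 without FF-10101 tumor 2 (4.13%) or FF-10101 tumor 3 (4.38%), where *Fcer1a* did not pass. At the adjusted threshold of that fit, 5 of the 7, *Cpa3*, *Mcpt4*, *Cma1*, *Tpsb2* and *Hdc*, had an adjusted p under 0.05 without control tumor 1, with values of 0.000239 to 0.0477 from limma, in a fit that called 21.9% of all genes. In that fit *Fcer1a* had an adjusted p of 0.126. With array weights 6 of the 7 were called, in a fit that called 59.9% of all genes. That fit rested largely on 1 tumor per group, with weights of 5.39 for control tumor 2 and 8.08 for FF-10101 tumor 2 and 0.139 to 0.859 for the other 4 tumors.

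**Figure D2:**
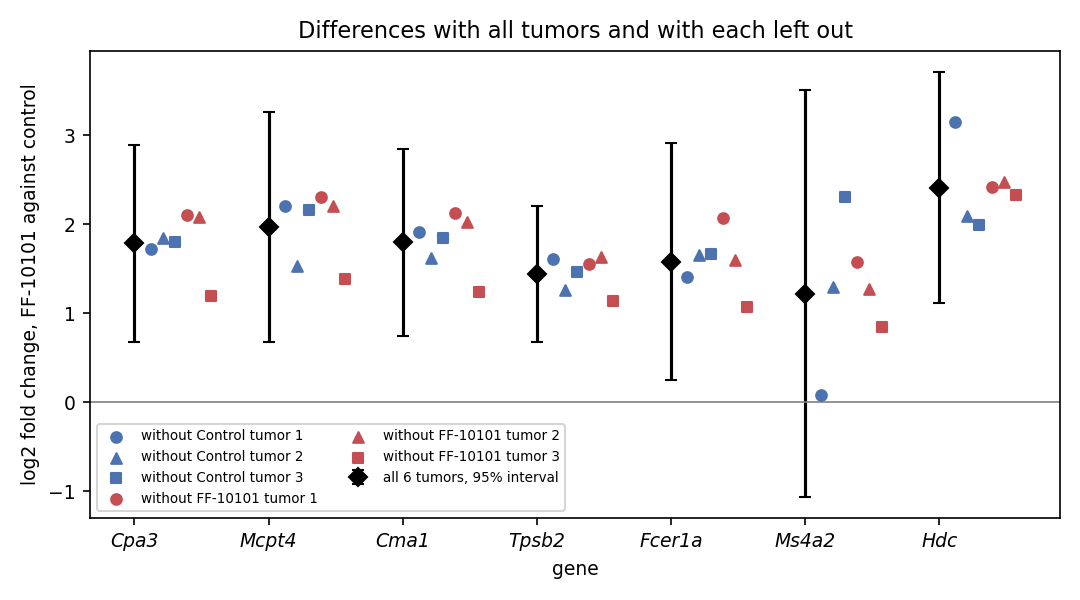
Log2 fold change of each mast cell gene, FF-10101 against control, from limma with all 6 tumors (black diamonds, bars are 95% intervals) and with each tumor left out (blue, a control tumor; red, a treated tumor). The red squares, without FF-10101 tumor 3, are the lowest for *Cpa3*, *Mcpt4*, *Cma1*, *Tpsb2* and *Fcer1a*, at 1.07 to 1.39, and every point is above 0, with *Ms4a2* at 0.077 without control tumor 1.

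The makeup of the protease reads was compared as the share of each gene in the reads of all 4. *Cma1* took 31.1%, 31% and 31% of the protease reads in the control tumors and 29.9%, 33% and 33.6% in the FF-10101–treated tumors. *Mcpt4* took 13.8% to 24.4% in the control and 22.1% to 25.7% in the treated tumors, and *Cpa3* 17.2% to 30.3% and 21.4% to 25.6%. The mean shares in control and treated tumors were 22.8% ± 6.78 and 23% ± 2.29 for *Cpa3*, 20.9% ± 6.11 and 23.8% ± 1.82 for *Mcpt4*, 31% ± 0.068 and 32.2% ± 1.98 for *Cma1*, and 25.3% ± 1.76 and 21.1% ± 5.57 for *Tpsb2* (SD, n = 3 each). The exact two-sided permutation p was 0.3 to 1, in a design that cannot go below 0.1, so these values do not show that the makeup was the same. *Tpsb2* had its lowest share in FF-10101 tumor 3, at 15.1% (95% exact binomial interval 13.3 to 16.9), below the 22% to 27.3% of the other tumors.

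**Figure D3:**
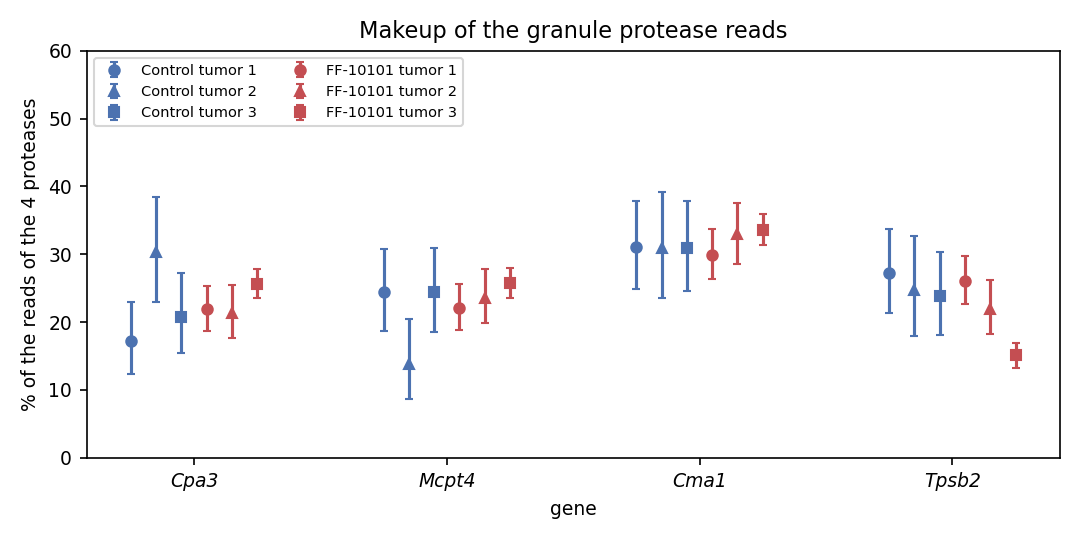
Share of the summed reads of *Cpa3*, *Mcpt4*, *Cma1* and *Tpsb2* that each gene took in each tumor, in percent, with 95% exact binomial intervals (counting error only), control tumors in blue and FF-10101–treated tumors in red. *Cma1* stays between 29.9% and 33.6%, and the interval of *Tpsb2* in FF-10101 tumor 3 lies below the points of the other tumors.

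Per kilobase of the longest coding transcript, *Cma1* had the highest level of the 7 genes in 6 of 6 tumors, *Ms4a2* the lowest and *Fcer1a* the second lowest. In the control tumors *Cma1* had 58 ± 11.7 normalized counts per kilobase, followed by *Tpsb2* with 40.2 ± 9.72, *Mcpt4* with 39.8 ± 17.6, *Cpa3* with 30.8 ± 2.57 and *Hdc* with 26.9 ± 26 (SD, n = 3 each). *Fcer1a* and *Ms4a2* followed with 8.86 ± 1.81 and 3.54 ± 4.65. Between *Tpsb2* and *Hdc* neighboring genes in this order were within their spread. In the FF-10101–treated tumors the levels per kilobase were 236 ± 172 for *Cma1*, 174 ± 133 for *Mcpt4*, 130 ± 103 for *Cpa3*, 114 ± 44.5 for *Tpsb2*, 109 ± 11 for *Hdc*, 33 ± 22.6 for *Fcer1a* and 4.82 ± 2.7 for *Ms4a2*. There the first 5 genes overlapped within their spread.

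As a description of sequence only, the 250 bases before their starts are shown for 4 of these genes. RefSeq (GRCm38.p6) gave this stretch for 6 of the 7 genes, and *Tpsb2* was not matched. Capitals mark words read by GATA factors, the transcription factor family of *Gata1* and *Gata2* (the word AGATAA, its variant TGATAA, the word AGATAG and its variant TGATAG, on either strand), and the E-box word CATGTG, which MITF can bind (on either strand). The stretches lie on the minus strand at chr3:20242182-20242431 for *Cpa3*, chr14:56062311-56062560 for *Mcpt4*, chr14:55944676-55944925 for *Cma1* and chr1:173227230-173227479 for *Fcer1a*, and are written 5′ to 3′ toward the gene.
Cpa3: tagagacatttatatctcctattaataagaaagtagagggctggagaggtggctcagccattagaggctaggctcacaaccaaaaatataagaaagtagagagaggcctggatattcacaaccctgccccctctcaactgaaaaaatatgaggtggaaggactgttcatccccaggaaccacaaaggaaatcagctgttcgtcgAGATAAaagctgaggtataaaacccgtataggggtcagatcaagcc
Mcpt4: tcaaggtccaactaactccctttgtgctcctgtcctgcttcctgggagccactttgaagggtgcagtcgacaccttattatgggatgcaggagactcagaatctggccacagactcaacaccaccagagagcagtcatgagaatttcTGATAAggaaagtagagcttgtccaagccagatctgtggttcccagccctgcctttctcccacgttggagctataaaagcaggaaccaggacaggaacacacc
Cma1: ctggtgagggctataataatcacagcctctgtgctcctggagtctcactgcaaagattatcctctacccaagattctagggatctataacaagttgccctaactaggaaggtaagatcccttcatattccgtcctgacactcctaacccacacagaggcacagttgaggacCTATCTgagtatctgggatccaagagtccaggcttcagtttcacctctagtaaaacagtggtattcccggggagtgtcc
Fcer1a: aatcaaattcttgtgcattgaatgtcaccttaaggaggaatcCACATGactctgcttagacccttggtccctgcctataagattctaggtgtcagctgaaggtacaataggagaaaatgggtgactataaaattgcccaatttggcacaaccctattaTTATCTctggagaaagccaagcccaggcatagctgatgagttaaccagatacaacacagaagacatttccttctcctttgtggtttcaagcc

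A GATA word was found in 6 of 6 of these stretches, and in 26.5% of 32851 promoter stretches of the same length. In *Cpa3* it began 46 bases before the start, in *Cma1* 79, in *Fcer1a* 92 and in *Mcpt4* 103. In *Hdc*, whose stretch is not shown, it began 221 bases before the start. *Ms4a2*, the gene whose groups overlapped, held 3 such words. The E-box word was found in 1 of the 6, *Fcer1a*, 208 bases before the start, and in 12.3% of all stretches. A match describes these letters and is not a measurement of binding.

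The receptor and the factors on which mast cells depend were compared next. *Kit* had 242, 104 and 56.6 normalized counts in the control tumors and 155, 149 and 220.4 in the FF-10101–treated tumors. The highest value was that of control tumor 1, the groups overlapped, and the log2 fold change was 0.60 (limma adjusted p = 0.551). *Kitl*, the gene of stem cell factor, had 216, 321 and 313 against 328, 399.5 and 449.8 normalized counts. Its groups did not overlap, with a log2 fold change of 0.48 (limma adjusted p = 0.32).

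Among the lineage factors, *Gata1* had 2.25, 9.78 and 3.33 normalized counts in the control tumors and 9.93, 25 and 52.4 in the treated tumors, a log2 fold change of 2.21 (limma adjusted p = 0.249). It was highest in FF-10101 tumor 3, as the proteases and also the fibroblast, adipocyte, eosinophil, basophil and endothelial marker sums were. *Gata1* reached the minimum through the treated tumors, since its control mean was 5.12. Which cells carried *Gata1* was not tested. *Gata2*, the factor that mast cells share with endothelium, had a log2 fold change of −0.15, and *Mitf* one of 0.22 (limma adjusted p = 0.687 and 0.758). Of the 10 genes of this list, *Kitl* and *Gata1* were higher with an unadjusted p under 0.05 in the fit without a minimum, beside 6.7% of all genes with a read, and 0 had an adjusted p under 0.05 (limma). *Kitl* passed in that fit alone, at an unadjusted p of 0.0494 against 0.0567 in the fit with the minimum (limma).

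Other mast cell proteases were low. *Mcpt1* and *Mcpt2*, chymase genes of mucosal mast cells that lie between *Cma1* and *Mcpt4* on chromosome 14, had 1.09 to 32.9 and 3.38 to 61.3 normalized counts over the 6 tumors. FF-10101 tumor 2 had only 1.09 and 8.68 of them, so these genes did not separate the groups, with log2 fold changes of 0.92 and 1.25 (limma adjusted p = 0.688 and 0.518). *Tpsab1*, a second tryptase gene whose product C57BL/6 mice are known to lack, was read in control tumor 3 and FF-10101 tumors 1 and 3, at no more than 6.87 normalized counts. *Mcpt9* and *Cma2* had 0 reads in every tumor. *Tpsg1* went the other way, with 2.25, 0 and 7.76 normalized counts in the control tumors and 0, 1.09 and 0 in the treated tumors. Its groups overlapped, and the fit without a minimum gave a log2 fold change of −1.26 (limma adjusted p = 0.573). Of the 6 further protease genes with a read, 2 were higher with an unadjusted p under 0.05 in the fit without a minimum (limma), beside 6.7% of all genes with a read. These were *Ctsg*, the gene of cathepsin G, and the pseudogene *Mcpt-ps1*, both at no more than 10.7 normalized counts in any tumor. *Mcpt4* shares 12.2% of its 31-base words with other genes, foremost *Cma2*, and *Tpsb2* shares 0.557% with *Tpsab1*.

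Of the signaling genes, *Fcer1g* encodes the IgE receptor chain that macrophages and NK cells also carry. It had 2365 to 5654 normalized counts, and its log2 fold change was −0.10 (limma adjusted p = 0.895). *Il1rl1*, the receptor for IL-33, had 5087, 1454 and 1581 normalized counts in the control tumors and 5680, 5552 and 7365 in the treated tumors, a log2 fold change of 1.44 (limma adjusted p = 0.233). It separated the groups, and control tumor 1 was close to the treated tumors. *Mrgprb1* and *Mrgprb2*, receptors of connective tissue mast cells, lay under the minimum. *Mrgprb1* was higher in each treated tumor, at 9.16, 11.9 and 17.8 against 1.13, 2.17 and 8.87 normalized counts, and *Mrgprb2* had at most 3.56. Of the 11 surface receptor genes, *Il1rl1*, *Mrgprb1*, *Csf2rb* and *Csf2rb2* were higher and *Cysltr1* lower with an unadjusted p under 0.05 in the fit without a minimum (limma), and of the 14 signaling genes *Lat2* was lower and 0 were higher, where 6.7% of all genes with a read were higher and 5.17% lower. *Csf2rb* passed in that fit alone, at an unadjusted p of 0.0402 against 0.0657 in the fit with the minimum (limma). *Csf2rb* had 586 to 2052 and *Csf2rb2* 296 to 1524 normalized counts over the tumors. In every tumor *Il1rl1*, *Csf2rb* and *Csf2rb2* were above each of the 7 mast cell genes. Which cells carried these transcripts was not tested. In the signaling list *Lat2* had the lowest log2 fold change, at −0.68, and of the surface receptors *Cysltr1* had the lowest, at −0.85 (limma adjusted p = 0.229 and 0.239).

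Histamine is also stored, broken down and sensed by the products of other genes. *Slc18a2*, the transporter that loads histamine into granules, had 28.1, 25 and 39.9 normalized counts in the control tumors and 36.7, 21.7 and 33.8 in the treated tumors, a log2 fold change of −0.02 (limma adjusted p = 0.985). *Hnmt*, which breaks histamine down, had 31.5, 32.6 and 27.7 against 9.93, 19.5 and 19.6, and was lower in every treated tumor (log2 fold change −0.92, limma adjusted p = 0.315). *Hrh2*, a histamine receptor gene, had the highest log2 fold change among the genes of its list that reached the minimum, 0.48, with overlapping groups. Below the minimum, *Tph1* had 0.99 and *Hrh4* 0.81. *Hpgds*, the prostaglandin D2 synthase that mast cells share with macrophages, had 226, 199 and 217 against 55.8, 89.0 and 88.9 normalized counts, a log2 fold change of −1.48 (limma adjusted p = 0.175). All treated tumors lay below all control tumors for *Hpgds*, opposite to the proteases. Of the 11 genes of this list with a read, 4 were lower with an unadjusted p under 0.05 and 0 were higher in the fit without a minimum (limma), where 5.17% of all genes with a read were lower and 6.7% higher. The 4 were *Hpgds*, the leukotriene genes *Ltc4s* and *Alox5ap*, and the prostaglandin synthase gene *Ptgs1*. The summed pan-macrophage markers were also lower in the treated tumors (22438 to 31322, against 35129 to 62269 in the control tumors). Of the 8 markers, *Adgre1*, *C1qa*, *C1qb* and *C1qc* were lower in every treated tumor, as were 6.52% of all genes with a read, and the other 4 overlapped, with *Mertk* at a log2 fold change of 0.14. The part of macrophages in these values was not tested.

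Over the 75 companion genes in 7 lists (proteases, KIT axis, IgE receptor signaling, surface receptors, histamine and eicosanoids, granule matrix, cytokines), 70 had a read. In the fit without a minimum 10 of these (14.3%) were higher with an unadjusted p under 0.05 and 6 (8.57%) were lower, where 6.7% and 5.17% of all genes with a read did so. With all tumors and no array weights none passed an adjusted p of 0.05 in either fit (limma), and 0 did with limma-voom, which called 5 of all genes. Their median log2 fold change was 0.27. Without control tumor 1, 19 of the companion genes that reached the minimum had an adjusted p under 0.05, in the fit that called 21.9% of all genes. Of the 10 granule matrix and secretion genes *Hs3st1* and *Serpinb1a* were higher with an unadjusted p under 0.05 in the fit without a minimum, and of the 8 cytokine genes with a read 0 were (limma). In the list of granule matrix and secretion genes *Hs3st1*, a heparan sulfate sulfotransferase, had the highest log2 fold change, 1.45, and *Vamp8* the lowest, −0.27 (limma adjusted p = 0.229 and 0.444). Among the cytokines, *Il33* had 178, 79.3 and 106 normalized counts in the control tumors and 81.0, 252 and 745 in the treated tumors. It was highest in FF-10101 tumor 3, and the groups overlapped (log2 fold change 1.11, limma adjusted p = 0.466).

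**Figure D4:**
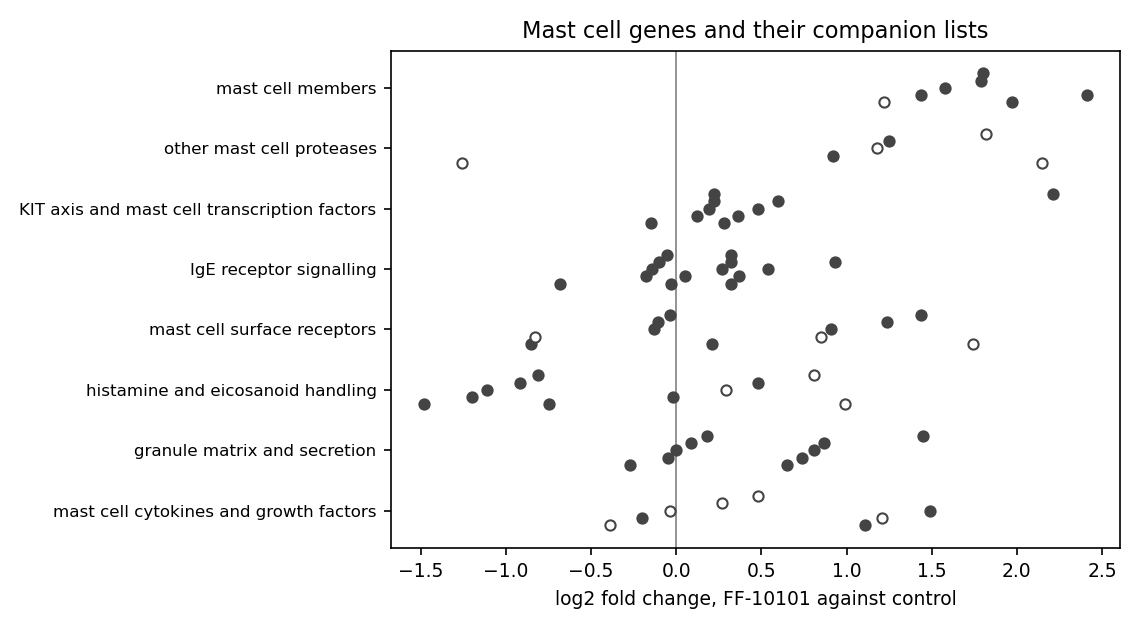
Log2 fold change, FF-10101 against control (limma), of the 7 mast cell genes and of the companion lists, 1 circle per gene, filled where the gene reached the mean of 10 normalized counts and open where it was read from the fit without a minimum. The 7 mast cell genes lie between 1.22 and 2.41, and the companion lists spread on both sides of 0.

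The markers of other cells were compared tumor by tumor. The basophil gene *Mcpt8* had 18.0, 13.0 and 11.1 normalized counts in the control tumors and 29.0, 14.1 and 32 in the treated tumors, and *Cd200r3*, found on basophils and mast cells, 11.3, 10.9 and 14.4 against 9.93, 11.9 and 11.6. Both overlapped between groups (limma adjusted p = 0.455 and 0.918), and neither showed the peak in FF-10101 tumor 3 that *Cpa3*, *Mcpt4* and *Cma1* had. *Prss34*, a further basophil protease gene, had at most 3.56 normalized counts. The list also holds *Il4*, *Cd200r4* and *Gzmb*, with log2 fold changes of 1.21 (fit without a minimum), 0.57 and 0.99 and overlapping groups. *Gzmb* was highest in FF-10101 tumor 3 and *Il4* in FF-10101 tumor 2. Of the 6 basophil genes, 1 was higher with an unadjusted p under 0.05 in the fit without a minimum (limma), beside 6.7% of all genes with a read. The part of basophils in the mast cell values was not tested. The neutrophil list summed to 1927 to 2282 normalized counts in the control tumors and 2743 to 3205 in the treated tumors, with *Ngp* at 0 reads in each tumor and *Ly6g* and *Camp* read in FF-10101 tumor 1 alone.

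Connective tissue and fat at the tumor margin carry mast cells of their own, so markers of neighboring tissue were summed as well. The fibroblast list summed to 13685, 7854 and 7907 normalized counts in the control tumors and 10303, 13720 and 20848 in the treated tumors, and the adipocyte list to 959, 584 and 1171 against 393, 1669 and 2250. Both were highest in FF-10101 tumor 3, as were the eosinophil, basophil and endothelial sums, both overlapped between groups, and the adipocyte sum of FF-10101 tumor 1 was the lowest of all tumors. The keratinocyte list was high in FF-10101 tumor 1 alone, at 1148 against 32 to 192 in the other tumors. Skeletal muscle markers summed to 3287 to 7098 in the control and 3206 to 11743 in the treated tumors, and nerve markers to 1100 to 1651 and 1034 to 1621. The endothelial list summed to 1627 to 5645 in the control and 5448 to 6132 in the treated tumors. By the rule used for the mast cell genes, an unadjusted p under 0.05 in the fit without a minimum (limma), 6 of its 8 genes were higher, with a median log2 fold change of 1.13, as were 4 of the 9 neutrophil genes with a read and 3 of the 8 fibroblast genes, beside 6.7% of all genes with a read. In the same fit 0 of these endothelial and fibroblast genes and 1 neutrophil gene, *Cxcr2*, had an adjusted p under 0.05. The endothelial sum of control tumor 1 was in the range of the treated tumors, and the eosinophil list summed to 204 to 335 in the control and 112 to 684 in the treated tumors. The conventional dendritic cell list summed to 718 to 1717 and 965 to 1102, and the basophil list, which also holds the granzyme gene *Gzmb*, to 438 to 1336 and 1020 to 1727. The part of neighboring tissue in the mast cell values was not tested.

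**Figure D5:**
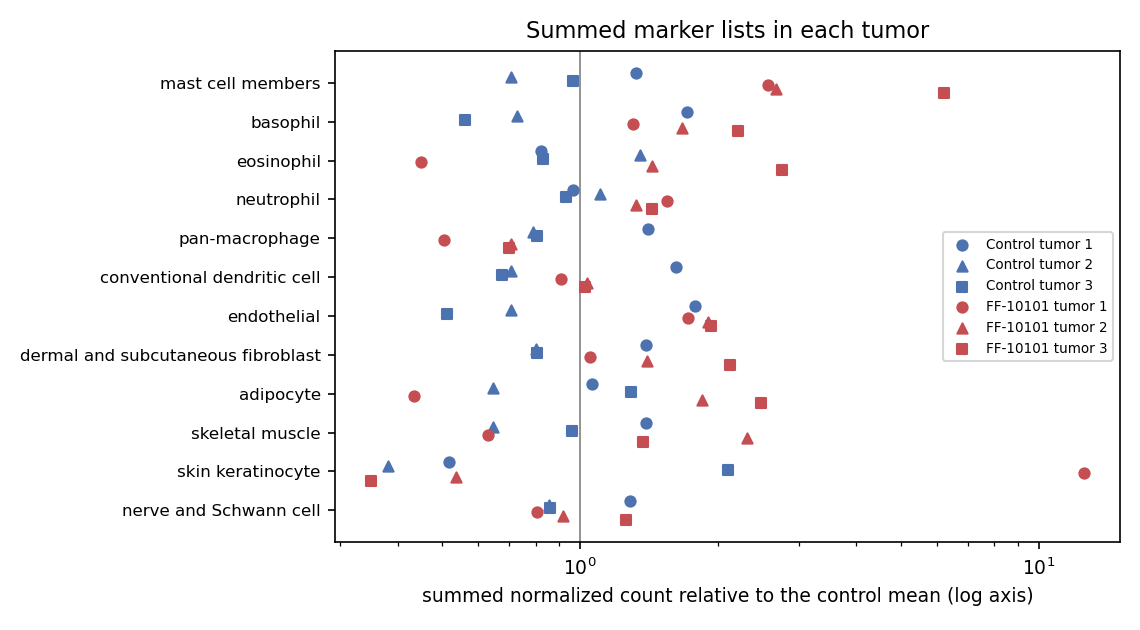
Summed normalized count of each marker list in each tumor, relative to the mean of the control tumors (log axis), control tumors in blue and FF-10101–treated tumors in red. The mast cell genes and the neutrophil list separate the groups upward, the pan-macrophage list downward, and FF-10101 tumor 3 is also highest for the fibroblast, adipocyte, eosinophil, basophil and endothelial lists.

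With the 7 mast cell genes themselves left out of the ranking, 10 genes had the pattern over the 6 tumors most like their mean. These were *Gm48111*, *Gm16685*, *Vstm4*, *Maob*, *Spic*, *Gm47476*, *Prickle2*, *Tcf24*, *Gfpt2* and *Dpt*. Likeness was the root mean square difference between the centered log2 values of a gene and the mean of the 7. It was 0.25 for *Gm48111* and 0.35 to 0.40 for the others. Between single members, where neither side is a mean, so that the values are not directly comparable, the difference was 0.25 for *Cpa3* and *Cma1*. It was 2.11 for *Ms4a2* and *Hdc*. *Dpt*, which encodes the extracellular matrix protein dermatopontin and is in the fibroblast list, had 916, 479 and 729 normalized counts in the control tumors and 1073, 1381 and 2306 in the treated tumors. *Vstm4* had 28.1, 12 and 18.9 against 42.8, 69.5 and 104.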

How the data were processed

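RNA of 6 MCA205 tumors (3 per group) was sequenced. The authors trimmed reads with fastp 0.19.5, quantified them with Salmon 1.5.1 on GENCODE vM27 and used DESeq2 1.22.1. They deposited log2 values, 1 per gene and tumor, and the transformation is not given in the sources used here. The inverse of the variance-stabilizing form, computed from the lowest value, gave whole reads for 100% of 325854 values (largest gap 4.4e-09), and reads divided by the recovered size factor are the normalized counts used. Salmon shares out reads that match several genes, so close copies are uncertain. Replicates differed beyond sampling noise (chi-square per degree of freedom 9.73 to 94.4).

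limma 3.58.1 in R 4.3.3 (lmFit, eBayes with a trend, group as the sole term, two-sided) was run on log2(normalized count + 1), a scale that understates the change of low genes, over 13963 genes with a mean of at least 10. Genes below it were read from the same fit over the 24056 genes with a read. The adjusted p is Benjamini-Hochberg over all genes of a fit. The limma fit was tried on simulated counts with the same dispersion for every gene and no outlying tumor. That setting differs from these tumors, so it does not show how the fit behaves here. Symbols (51484 identifiers), transcript lengths and shared 31-base words come from GENCODE vM21 on GRCm38, another build than the authors' annotation, and promoters from RefSeq. Named genes are the 7 members, fixed partners in the companion lists, the highest and lowest of each list, and the 10 genes most alike. Some results under this rule are not reported here. Genes named beyond this rule, such as the neutrophil markers and the companion genes past an unadjusted p, were chosen after their values were seen. The members and lists were chosen with earlier results of these data known. Alternatives were other pseudocounts, minimums, scalings and weights, no trend, a replicate block, each tumor left out, the deposited values and limma-voom.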

Additional observations from a re-analysis of the deposited data

How the results depend on the processing

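Each of the 7 mast cell genes kept its direction under every alternative in which it could be tested. The log2 fold change ranged from 1.19 to 2.10 for *Cpa3*, 1.39 to 2.37 for *Mcpt4*, 1.24 to 2.13 for *Cma1*, 1.03 to 1.63 for *Tpsb2*, 0.70 to 2.07 for *Fcer1a*, 0.077 to 2.31 for *Ms4a2* and 1.74 to 3.15 for *Hdc*. At an adjusted p of 0.05, 0 of the 7 were called with all tumors and no array weights. With all tumors and array weights 6 were called, and 0 to 5 with 1 tumor left out. The number with an unadjusted p under 0.05 was 3 to 6 with 1 tumor left out in the fit without a minimum and 5 to 6 in the fit with it. In the former 3.57% to 12.7% of all genes were higher by that rule, and in the latter 4.13% to 19.8%. Of the companion genes, 0 were called with all tumors and no array weights, 38 with all tumors and array weights, and 0 to 19 with 1 tumor left out. Array weights called 8365 of all genes (59.9%) and gave weights of 0.139 to control tumor 1, 5.39 to control tumor 2 and 8.08 to FF-10101 tumor 2. Over all genes the count was 6, and it was 17 without a minimum, 3 with a minimum mean of 50, 1 with the replicate block, and 1 to 3051 with 1 tumor left out. The higher count is that without control tumor 1 and the cause was not tested. The replicate numbers gave no pairing, as same-numbered tumors correlated at −0.29, −0.04 and −0.28 in their deviations, and with the replicate block 0 of the 7 were called. With a minimum mean of 50, *Fcer1a* and *Ms4a2* were not tested. Depth limits *Ms4a2*, at 0 to 21 reads per tumor, and *Fcer1a*, at 6 to 65.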

Other observations

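The protease cluster of chromosome 14 that holds *Cma1* and *Mcpt4* continues into the granzyme genes of cytotoxic lymphocytes, and *Gzmb* to *Gzmg* were also at their highest in FF-10101 tumor 3, while *Gzmn* had 0 reads in every tumor. Of these, *Gzmd* had 451, 165 and 76.5 normalized counts in the control tumors and 217, 485 and 1022 in the treated tumors, *Gzmf* 165, 68.5 and 12.2 against 160, 204 and 684, and *Gzmc* 1193, 523 and 316 against 1140, 1331 and 1994. *Gzmb*, which lies at the end of the cluster, had 1144, 476 and 366 against 891, 1156 and 1524. Unlike *Cma1* and *Mcpt4*, these granzyme genes had overlapping groups, with control tumor 1 above FF-10101 tumor 1 in each. *Ctsg*, the cathepsin G gene between *Mcpt8* and the granzymes, had 3.38, 1.09 and 0 against 5.35, 9.77 and 10.7 normalized counts. These granzyme genes and *Ctsg* were chosen for their position, after their values were seen.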
